A study of Anser anser with 2 samples.

Results

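The tags described here are distinct small RNA read sequences from goose liver that were matched to a miRNA of a named family but differ from that reference at 1 or more bases. They were chosen by 2 columns of the deposited tag lists, a mismatch count of at least 1 and a family that is not undefined, and no level or ratio entered the choice. The overfed library held 10440 such tags of 18072 in all, and the control library 10210 of 17203. They carried 413158 of 9737540 listed miRNA reads in the overfed library and 478365 of 9178938 in the control library. The overfed tags fell under 494 miRNA names of 217 families and the control tags under 463 names of 193 families. In all, 15635 distinct tags were seen, of which 5015 occurred in both libraries. These shared tags were 48.0% of the overfed tags and 49.1% of the control tags, yet held 98.4% of the mismatched reads in the overfed library and 98.7% in the control library. The rest were rare: tags of a single read made up 59.4% of the overfed tags and 59.8% of the control tags.

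Liver came from male Landes geese aged 90 days, of a breed used for fatty liver, and the study began with 60 animals. The overfed group was given a carbohydrate-rich feed over 21 days, with 3353 kcal, 76 g of protein and 15 g of fat per kg, and the tissue is labelled fatty liver. The control group had free access to a basal diet of 2873 kcal and 171 g of protein per kg, and the tissue is labelled normal liver. Each group has 1 library, and the labels do not say how many birds went into it. There is thus no replicate check and no test between diets: differences are between these 2 libraries, and intervals are exact 95% intervals that cover counting error only.

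A mature miRNA is cut from a hairpin precursor and loaded into an Argonaute protein, where its seed, bases 2 to 8, directs it to target messages. The same miRNA is usually found in several forms. Terminal nucleotidyl transferases can add bases to its 3′ end, mostly A or U (read as T), and in mouse and human liver the enzyme GLD-2 adds an A to miR-122. ADAR enzymes can turn A into inosine, which a sequencer reads as G. A read can also differ from a reference because the reference was taken from another species, because a close relative was sequenced, or because of a sequencing error. The tag lists do not hold the goose hairpins, so whether the hairpin encodes an end base was not tested.

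miR-122, the miRNA that defines hepatocytes, stood at 743626 reads per 1000000 listed miRNA reads in the overfed library and 726545 in the control library. The summed markers of other cells, counted under their exact listed names alone, were far lower, with all listed names detected. In the overfed library they stood at 764 reads per 1000000 for stellate or mesenchymal cells, 205 for red cells, 67.4 for endothelium and 40.8 for leukocytes. In the control library they stood at 1037, 228, 57.3 and 34.0 for the same cells. The stellate or mesenchymal sums leave out reads of these miRNAs under other names, and so are too low. Whether the sums of red cells, endothelium and leukocytes are too low in the same way was not tested. Of the stellate or mesenchymal miRNAs, in the overfed library miR-143 held 8657 reads, miR-199 16211 and miR-199a-3p 15152. In the control library they held 8590, 17929 and 18092. In such bulk samples fewer cells of a type and less RNA per cell cannot be told apart. The part of these cells in the shares below was not tested.

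The mismatched tags fall into a few kinds, shown here by the tags that carry most of the reads or the clearest differences, each above the reference it was matched to. Sequences run 5′ to 3′ as deposited, in DNA letters, and capitals mark the bases at which tag and reference differ. The first set shows single bases at the 3′ end, in miR-122, let-7f-5p, miR-221-3p and miR-199a-3p.
miR-122 tag: tggagtgtgacaatggtgtttgA
miR-122 reference: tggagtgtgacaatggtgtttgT
let-7f-5p tag: tgaggtagtagattgtatagtA
let-7f-5p reference: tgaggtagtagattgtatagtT
miR-221-3p tag: agctacattgtctgctgggtttT
miR-221-3p reference: agctacattgtctgctgggtttC
miR-199a-3p tag: acagtagtctgcacattggttT
miR-199a-3p reference: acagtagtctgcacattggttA
The second set shows names whose reads carry the other base almost without exception in both libraries, or nearly so for miR-146b.
miR-148b-3p tag: tcagtgcatcacagaacttGgt
miR-148b-3p reference: tcagtgcatcacagaacttTgt
miR-30c-1-3p tag: tgggagaggAttgtttacGcca
miR-30c-1-3p reference: ctgggagaggGttgtttacTcc
miR-152-3p tag: tcagtgcatCacagaacttgg
miR-152-3p reference: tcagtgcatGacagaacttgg
miR-716a tag: cggtgCgcctggaagcct
miR-716a reference: gcggtgGgcctggaagcct
miR-150-5p tag: tctcccaacccCtgtaccagCg
miR-150-5p reference: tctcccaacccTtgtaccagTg
miR-146b tag: tgagaactgaattccataggcGTt
miR-146b reference: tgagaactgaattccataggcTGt
The third set shows changes inside the miRNA that a minority of reads carry; the miR-2188 tag also differs at its first base, which is not such a change.
miR-191 tag: caGcggaatcccaaaagcagc
miR-191 reference: caAcggaatcccaaaagcagct
miR-2188 tag: GaggtccGacctcacatgtcct
miR-2188 reference: AaggtccAacctcacatgtcct
miR-214-3p tag: acagcGggcacagacaggcagta
miR-214-3p reference: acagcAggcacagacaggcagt
miR-1a-3p tag: tggaatgtTaagaagtatgtat
miR-1a-3p reference: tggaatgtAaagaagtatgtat

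Mismatched reads were a small part of the reads of named families and were concentrated in miR-122. They made up 4.26% of those reads in the overfed library (4.25 to 4.27) and 5.23% in the control library (5.21 to 5.24). Leaving out the miR-122 family turned the order round, with 4.55% in the overfed library and 4.09% in the control library. The name miR-122 alone held 54.8% of all mismatched reads in the overfed library and 64.0% in the control library. Most mismatched reads had a single mismatch, 378292 in the overfed library and 447014 in the control library. Those with 2 mismatches numbered 34866 in the overfed library and 31351 in the control library.

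The 10 names with the most mismatched reads covered very different situations. Of the miR-122 reads, 15.7% were mismatched in the overfed library and 19.4% in the control library, whereas under miR-122-5p, a reference 1 base shorter, the shares were 1.27% in the overfed library and 1.38% in the control library. These 2 names split the reads of 1 miRNA by length, so a share taken within either name depends on that split. The let-7 miRNAs, regulators of developmental timing, were close to their references: 1.32% of let-7f-5p reads were mismatched in the overfed library and 1.43% in the control library, and for let-7-5p the shares were 1.197% in the overfed and 1.32% in the control library. At the other extreme stood miR-148b-3p, with 98.0% of its reads mismatched in the overfed library and 98.6% in the control library.

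Between these lay names with many mismatched reads beside reads listed with 0 mismatches. For miR-146b and miR-2476 many of the latter were aligned through a gap, and so differed from the reference too. miR-146b, of a family induced in inflammation, had 52.6% of its reads mismatched in the overfed library and 48.4% in the control library. miR-103a-3p and miR-107, close relatives that affect insulin sensitivity in mouse liver, stood at 42.6% and 16.6% in the overfed library and at 36.4% and 16.3% in the control library. miR-221-3p, known in human cells to repress cell cycle inhibitors, had 26.3% in the overfed library and 21.4% in the control library. miR-2476 stood at 25.6% in the overfed library and 22.7% in the control library. Its most read tag listed with 0 mismatches, aligned through a gap, had 16303 reads in the overfed library and 11961 in the control library. It was not tested whether the reads listed under miR-2476 come from a miRNA. Over the 67 names of named families with at least 1000 reads in each library, the median share was 3.15% in the overfed library and 3.58% in the control library. Only 3 names were under 1% in both libraries, and 6 were over 50% in both.

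Most mismatched reads differed at the 3′ end, whereas most distinct tags did not. A difference was placed at the 3′ end where an unbroken run of differing bases reached the last base of the tag. Such reads were 65.7% of mismatched reads in the overfed library and 72.0% in the control library, but only 11.9% of the tags in the overfed and 11.6% in the control library. Internal differences were the reverse: 48.2% of the tags and 19.0% of the reads in the overfed library, and 47.8% of the tags and 15.4% of the reads in the control library. Differences among the last 3 bases, with a matching base after them, took 8.37% of the reads in the overfed and 6.74% in the control library. Differences at the 5′ end were rare, at 0.845% in the overfed library and 0.657% in the control library. Tags aligned with an internal gap made up 4.97% of the reads in the overfed library and 4.14% in the control library, and the rest had differences in more than 1 place. Without miR-122 the 3′ end still held the largest share, 41.6% in the overfed library and 43.0% in the control library.

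Among reads whose only difference was 1 base at the 3′ end, that base was A in 88.3% in the overfed library (88.2 to 88.4) and 92.6% in the control library (92.5 to 92.6). T followed with 9.42% in the overfed and 5.70% in the control library, C with 2.06% in the overfed and 1.51% in the control library, and G with 0.225% in the overfed and 0.241% in the control library. The A came largely from miR-122. Without it T led, with 66.2% in the overfed library and 55.4% in the control library, and A stood at 30.4% in the overfed library and 40.6% in the control library. A base that equals the reference cannot show as a mismatch, so these shares depend on the references: the miR-122 reference of 23 bases ends in T, and a T there is not counted. Reads aligned through an internal gap are not counted either, among them many miR-122 reads with a T after the first 21 bases.

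The miR-122 tag with a final A, the first of the sequences above, was the most read mismatched tag of both libraries, with 186775 reads in the overfed library and 260050 in the control library. Positions are counted from 1 at the 5′ end of the most read reference of a name. Within the name miR-122 the change T23A was carried by 13.6% of the reads that reach this base in the overfed library and 17.1% in the control library. A measure that does not depend on the name is the base that follows the first 22 bases, over all listed reads that begin with them. Of 4828092 such reads in the overfed library, 72.8% stopped there, 23.1% went on with T, 4.04% with A (4.02 to 4.05) and 0.0824% with C. Of 4523264 in the control library, 68.3% stopped, 25.6% went on with T, 5.97% with A (5.95 to 5.99) and 0.0848% with C. Both longer forms were thus scarcer in the overfed library, and the ratio of the A form was 0.676 (0.672 to 0.680). This measure was added after the data had been seen.

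The A of miR-122 was not equally common after every end. After the first 21 bases it followed in 0.208% of reads in the overfed library and 0.312% in the control library, a ratio of 0.667 (0.653 to 0.681). After the first 20 bases it followed in 0.202% in the overfed library and 0.1997% in the control library, a ratio of 1.01 (0.986 to 1.03) whose interval includes 1. After all 23 bases it followed in 0.535% in the overfed library and 0.481% in the control library, a ratio of 1.11 (1.07 to 1.15). The lower A share of the overfed library was therefore seen after 21 and 22 bases and not after 20 or 23. T followed more often than A after 21 bases, in 1.33% (overfed) and 1.68% (control), a ratio of 0.794 (0.787 to 0.801). After all 23 bases T also exceeded A, with 0.775% (overfed) and 1.16% (control), a ratio of 0.665 (0.647 to 0.683).

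Other names differed in which single end base was listed as a mismatch. Single end bases under miR-107, miR-199a-3p and miR-103a-3p were almost all T: 99.8%, 97.3% and 99.9% in the overfed library, against 99.9%, 97.0% and 100% in the control library. T also led in miR-221-3p, with 92.0% in the overfed library and 90.5% in the control library, and in miR-456, with 79.4% in the overfed and 84.0% in the control library. A led in miR-21, a miRNA often raised in injured tissue, with 98.1% in the overfed library and 98.5% in the control library. In let-7f-5p it was 94.3% in the overfed library and 95.1% in the control library, and in let-7-5p it was 93.6% in the overfed and 94.1% in the control library. The references of both let-7 miRNAs end in T, so an added T after a shortened form would look like the reference. Likewise the references of miR-199a-3p, miR-103a-3p and miR-456, and a miR-107 reference, end in A, so an A there is not counted. Over reads of any name, A followed 21 bases of miR-199a-3p more often than T, in 40.8% (overfed) and 40.4% (control). It also exceeded T after 22 bases of miR-103a-3p, with 38.4% against 14.5% (overfed) and 42.4% against 14.9% (control). After 21 bases of miR-456, T exceeded A, which stood at 14.4% (overfed) and 15.5% (control).

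Counted by the base that follows a fixed stretch over reads of any name, the end base of the printed or most read tag made up very different parts of its miRNA. Besides miR-122, it was low in let-7-5p, where after 21 bases A followed in 0.372% in the overfed library and 0.484% in the control library, and in let-7f-5p, with 0.420% in the overfed library and 0.513% in the control library. After the first 21 bases shared by miR-107 and miR-103a-3p, C, the base of miR-107, followed in 41.6% of reads in the overfed library and 31.5% in the control library. G, the base of miR-103a-3p, followed in 24.2% in the overfed library and 31.9% in the control library, and T, the base of neither, in 11.9% in the overfed library and 10.97% in the control library. For miR-221-3p, after 22 bases, the C of the reference followed in 44.3% in the overfed library and 54.5% in the control library, while T followed in 13.8% in the overfed and 12.7% in the control library. For miR-199a-3p, after 21 bases, T followed in 8.05% in the overfed library and 10.1% in the control library. For miR-21, after 23 bases, A followed in 48.9% in the overfed library and 50.9% in the control library. For miR-456, after 21 bases, T followed in 52.0% in the overfed library and 54.9% in the control library. The intervals of the libraries overlapped for miR-21 and miR-456 and lay apart for the other bases given here.

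The same count was made after the most read tag listed with 0 mismatches of each deep name, 57 stretches in named families, some nested within one another. Those of miR-146b and miR-2476 had themselves been aligned through a gap and are not exact. An A followed more often in the overfed library for 3 of them and less often for 10, where the exact intervals of the 2 libraries did not overlap. Over the 58 stretches of any family, these calls came to 5.17% higher and 17.2% lower. A T followed more often for 3 and less often for 25, against 5.17% higher and 43.1% lower over the 58. A G followed more often for 1 and less often for 15, against 1.72% higher and 25.9% lower over the 58. In some stretches the base counted is that of the reference itself, as the T after 21 bases of let-7g, so these counts describe longer reads of each base and not mismatched tags alone. Most of these differences were small: at a ratio of at least 1.5 only 1 stretch was called lower and 0 higher for A (1.72% and 0%), and 3 were lower and 1 higher for T (5.17% and 1.72%). Since 57 of the 58 stretches belong to named families, the comparison cannot set those families apart. In most stretches a larger share of reads stopped at the end of the stretch in the overfed library. For let-7-5p this share was 61.1% in the overfed and 55.6% in the control library, and for miR-21-5p 62.7% and 51.9%. A few went the other way, among them miR-107, with 21.1% in the overfed and 24.4% in the control library. Whether the lower shares of a following base go beyond this was not tested. After the whole let-7f-5p sequence of 22 bases, where an A is not listed as a mismatch, it followed in 8.85% in the overfed library and 8.81% in the control library. The 3 stretches that A followed more often in the overfed library were those of let-7-5p, let-7c and miR-122. The 1 called lower for A was miR-21-5p, with 0.234% in the overfed library and 0.498% in the control library. For miR-143, a miRNA of smooth muscle and other mesenchymal cells, A followed the most read exact tag in 2.46% in the overfed library and 3.59% in the control library. In miR-140 star, the 3′ strand of a miRNA best known from cartilage, it followed in 13.8% in the overfed library and 20.4% in the control library. Intervals lay apart for miR-143 and miR-140 star, but neither was called at the ratio of 1.5. Both were named here after their values were seen.

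At 11 sites of 9 names the reads differed from the reference in at least 90% of the depth in both libraries, with at least 100 reads of the name over the site in each. The most read was T20G in miR-148b-3p, a member of a family that shares its seed with miR-152. It was carried by 12692 of 12735 reads in the overfed library (99.7%, 99.6 to 99.8) and 9602 of 9647 in the control library (99.5%, 99.4 to 99.7). Over reads of any name that hold the 10 bases before the site, G followed in 99.9% in both libraries. The reference has T at this place, so the sequence of the reference was nearly absent from both libraries.

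miR-30c-1-3p, the minor strand of a miR-30 precursor, carried 2 such sites. G11A was found in 1688 of 1690 reads in the overfed library and 1565 of 1568 in the control library, and T20G in 1588 of 1592 reads in the overfed library and 1519 of 1525 in the control library. The printed tag begins at the second base of the reference, and the positions are those of the reference. miR-150-5p, a miRNA of lymphocytes, carried T12C in 104 of 104 reads in the overfed library and 131 of 132 in the control library, and its printed tag differs at another base nearer the end. miR-716a carried G7C in 304 of 306 reads in the overfed library and 300 of 302 in the control library. By its position on the listed reference, this was the 1 near-fixed change within a seed. It was not tested whether reads listed under miR-716a or miR-716b come from a miRNA, and so have a seed at all.

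The remaining near-fixed sites could be read under another name or lay at an end. The miR-152-3p tag with G10C, in 498 of 500 reads in the overfed library and 369 of 370 in the control library, lies wholly within the miR-148b-3p tag printed above, and the listed miR-148b-3p reference also holds the C. Over reads of any name with the 5 bases before and after this site, C was found in 99.9% in both libraries. The variant of miR-24, G23T in 97.3% of reads in the overfed library and 98.9% in the control library, lay at the last base of the reference. That of miR-726, T1C in 100% in the overfed library and 99.6% in the control library, lay at the first. Whether other listed references hold these bases was not tested, since the search of references left out the end bases. miR-100-5p carried G23A in 97.0% of the reads in the overfed library and 97.5% in the control library. It carried G24A at the next base in 97.6% in the overfed library and 97.9% in the control library. Over reads of any name, however, A followed the bases before the first of these in 78.2% in the overfed library and 69.6% in the control library. miR-716b carried A22C in 91.9% in the overfed library and 97.4% in the control library, the site nearest the threshold. The nearest below it were C23A of miR-125c, T24A of miR-21 and T22G of miR-146b, with 81.6%, 79.9% and 80.2% in the overfed library and 79.2%, 78.4% and 76.6% in the control library.

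miR-146b fell short of the threshold when only the reads aligned without a gap showed the change. Its most read mismatched tag differed from the reference at bases 22 and 23, where the reference has TG and the tag GT, and had 11351 reads in the overfed library and 9088 in the control library. Reads of any name that begin with the first 21 bases numbered 23398 in the overfed library and 19482 in the control library. They went on with G in 98.96% in the overfed library and 98.95% in the control library, and with the T of the reference in 11 reads of the overfed library and 4 of the control library. Many of these reads had been aligned with a gap and were listed with 0 mismatches, 8883 in the overfed library and 7538 in the control library. Counted by the following base, G was thus nearly fixed in both libraries.

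Inside the miRNAs, away from the ends, single changes were rare. For the 67 deep names, 3557 combinations of an inner position and a changed base were possible, leaving out near-fixed sites. Of these, 1249 were seen in 0 reads of both libraries, and 7 reached 1% in both. The median share was 0.0027% in the overfed library and 0.0034% in the control library. Pooled over names, a base entered the count once for each of the 3 changes possible at it. The pooled rates are thus means per kind of change, and the rate of any change at a base is higher. So counted, the mean rate was 141 per 1000000 in the overfed library and 143 in the control library. Within the seed it was 171 per 1000000 in the overfed library and 175 in the control library, against 123 in both libraries from base 9 on.

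The kinds of change differed widely in rate, and the same 4 kinds led in the same sequence in both libraries. C-to-T was highest, with 373 per 1000000 C bases in the overfed library and 402 in the control library, and A-to-C lowest, with 24.3 in the overfed and 23.9 in the control library. A-to-G, the change that inosine would show, stood at 223 per 1000000 A bases in the overfed library and 234 in the control library, followed by G-to-T, with 202 in the overfed and 233 in the control library, and T-to-C, with 196 in the overfed and 183 in the control library. Without miR-122 and let-7, G-to-T led instead, with 389 in the overfed and 435 in the control library. C-to-T then stood at 315 in the overfed and 392 in the control library, and A-to-G at 290 in the overfed and 383 in the control library. Counted as a share of reads with 1 internal change, G-to-T led with 19.7% in the overfed library and 22.6% in the control library. T-to-C followed with 14.2% in the overfed and 13.2% in the control library, and A-to-G with 12.4% in the overfed and 12.98% in the control library. In these pooled counts A-to-G was therefore among the commoner changes but not set apart from the rest.

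The deepest names show how low the background lay. In miR-122-5p, with at least 5795049 reads over each inner base in the overfed library and 5085529 in the control library, the commonest inner change was T17G, in 0.0547% of reads in the overfed library and 0.0466% in the control library. The commonest A-to-G change there, A4G, was in 0.0393% in the overfed library and 0.0372% in the control library. In let-7f-5p the commonest change was A7G, in 0.0562% in the overfed library and 0.0527% in the control library, and in let-7-5p it was also A7G, in 0.0544% in the overfed library and 0.0618% in the control library. In these 3 names no single inner change was thus carried by more than 0.0618% of reads. In let-7f-5p the median A-to-G share was 0.0274% (overfed) and 0.0297% (control), against 0.0092% and 0.0094% over all inner changes. In let-7-5p it was 0.0436% (overfed) and 0.0442% (control), against 0.0094% and 0.0093%. In miR-122-5p the medians lay closer, at 0.0145% (overfed) and 0.0147% (control), against 0.0109% and 0.0116%.

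Against this background 7 inner sites held 1% to 90% of a depth of at least 1000 reads in both libraries, 2 of them A-to-G. Both are A3G, within the seed of miR-191, a miRNA found in many tissues, whose reads are split over 2 names. Under miR-191 it was found in 246 of 17422 reads in the overfed library (1.41%, 1.24 to 1.60) and 300 of 14034 in the control library (2.14%, 1.90 to 2.39). Under miR-191-5p it was found in 26 of 1513 reads in the overfed library (1.72%) and 45 of 2449 in the control library (1.84%). Over reads of any name that hold the 10 bases after the site, G preceded them in 1.45% of 18808 reads in the overfed library and 2.13% of 16350 in the control library. The change was therefore present in both libraries and less frequent in the overfed library, beyond counting error under the name miR-191.

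The 5 other inner sites were not A-to-G. miR-1a-3p, a miRNA of striated muscle, carried A9T in 1.45% of 7506 reads in the overfed library and 2.59% of 6799 in the control library, and the changed sequence is that of the listed miR-1b. let-7d-5p carried C16T in 1.02% of 3932 reads in the overfed library and 1.195% of 3682 in the control library, and from its second base on the changed sequence is that of let-7-5p. Over reads of any name with the same 5 bases on both sides, T stood there in 99.3% in both libraries. Whether these reads came from close relatives was not tested. miR-22-3p carried G10T in 14 of 1267 reads in the overfed library and 25 of 1313 in the control library, and C8T in 14 of 1267 in the overfed library and 19 of 1314 in the control library. miR-2476 carried G8T in 1.17% of 38478 reads in the overfed library and 1.13% of 30667 in the control library. By flanking bases, over reads of any name, its share was 7.52% of 6053 reads in the overfed library and 5.93% of 5785 in the control library. Since the origin of the miR-2476 reads was not tested, this site may not be a change in a miRNA.

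With at least 100 reads in place of 1000, the count of A-to-G sites was 8 and that of other changes 14. These shallower sites are named after their values were seen. Counting reads of any name with the same 5 bases on both sides separates them into kinds. miR-2188, a miRNA known from fish and birds, carried A8G, the last base of the seed, in 32 of 665 reads of the name in the overfed library (4.81%, 3.31 to 6.73) and 25 of 594 in the control library (4.21%, 2.74 to 6.15). By flanking bases its share was 4.70% in the overfed library and 4.26% in the control library. miR-214-3p, a miRNA of mesenchymal cells, carried A6G, also in the seed, in 19 of 174 reads in the overfed library (10.9%) and 18 of 216 in the control library (8.33%). The intervals of both sites overlap between the libraries.

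The other shallow A-to-G sites were of different kinds. A13G of miR-726 was found in 48.8% of 242 reads in the overfed library and 58.3% of 235 in the control library, so that the A and the G form were of like abundance. A11G of miR-365a-3p rested on 5 reads in each library. A11G of miR-26-1 star was found in 11.96% of the reads of the name in the overfed library and 10.9% in the control library, and A11G of miR-144 star in 11.9% in the overfed library and 16.9% in the control library. By flanking bases, however, G was found in all 166 reads of the overfed library and all 124 of the control library at the miR-144 star site. At the miR-26-1 star site only 4 reads of the overfed library and 2 of the control library had these flanks, but after the 10 bases before it G followed in 100% of 191 reads in the overfed library and 99.6% of 273 in the control library. At both sites the shares within the name thus understated the G. Among the shallow changes of other kinds the commonest were T20C of miR-425-5p, with 81.1% of 111 reads in the overfed library and 69.5% of 118 in the control library, and T10C of let-7d, with 58.6% of 1172 reads in the overfed library and 62.3% of 941 in the control library. The C of miR-425-5p, counted over reads of any name, followed the 10 bases before it in 100% of 465 reads in the overfed library and 100% of 374 in the control library, and the changed sequence also matches another listed miR-425 reference. The C of let-7d preceded the 10 bases after it in 88.2% of 779 reads in the overfed library and 87.6% of 668 in the control library. G12A of let-7e-5p followed with 37.2% of 199 reads in the overfed library and 47.3% of 150 in the control library.

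The last comparison asked which sites differed between the diets. Of 80 sites with at least 1000 reads in both libraries and a share of at least 1% in either, the overfed share exceeded the control share by a factor of 1.5 or more with intervals apart at 4 (5%) and was lower by that factor at 5 (6.25%). The median ratio was 1.02, and 39 of the 80 were within 1.2 times. Of the 60 sites at the 3′ end, 4 were higher and 3 lower; of the 11 internal sites, 0 were higher and 2 lower. Calls were thus few and went in both directions.

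The sites that were higher all lay at base 22 or 23. miR-140 star carried C23A in 9.35% of reads in the overfed library and 4.27% in the control library, a ratio of 2.19 (1.99 to 2.41), and C23T in 4.72% in the overfed library and 2.98% in the control library, a ratio of 1.58 (1.40 to 1.79). Over reads of any name, A followed the 10 bases before that site in 39.1% in the overfed library and 35.4% in the control library, and T in 24.1% in the overfed and 24.2% in the control library. miR-103a-3p carried G22T in 18.3% of reads in the overfed library and 11.7% in the control library, a ratio of 1.56 (1.45 to 1.68). Over any name, leaving out reads that stop before the site, T followed in 15.1% in the overfed library and 14.5% in the control library. That count mixes miR-103a-3p with miR-107, which shares the bases before the site. These 3 differences were thus under 1.5 times once the reads of all names were counted. miR-24 carried G23A in 25 of 1330 reads in the overfed library and 8 of 1580 in the control library, a ratio of 3.71 (1.62 to 9.52), and over any name the shares were 1.86% in the overfed library and 0.407% in the control library.

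The sites that were lower included 2 of the inner changes described above. The ratio was 0.66 (0.56 to 0.78) for A3G of miR-191 and 0.56 (0.44 to 0.72) for A9T of miR-1a-3p. Counted over reads of any name, by the 10 bases after the site, the shares given above for A3G differed by under 1.5 times, while A9T stood at 1.53% in the overfed library and 2.68% in the control library. miR-184-3p carried T22A in 4.07% of 7147 reads in the overfed library and 6.27% of 3364 in the control library, and G21T in 0.881% in the overfed library and 1.96% in the control library, a ratio of 0.45 (0.31 to 0.64). Over any name A followed the bases before the first of these in 3.30% in the overfed library and 4.90% in the control library, and T those before the second in 1.60% in the overfed and 3.91% in the control library. miR-199a star carried A21T in 7.22% of 1219 reads in the overfed library and 11.2% of 1290 in the control library. Over any name T followed in 20.5% in the overfed library and 25.2% in the control library. Reads that stop before the site are left out here, unlike in the 8.05% (overfed) and 10.1% (control) given for miR-199a-3p above. All 5 were lower in the overfed library over reads of any name too, but A3G of miR-191, T22A of miR-184-3p and A21T of miR-199a star then differed by under 1.5 times.

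By whole names, the mismatched share was at least 1.5 times higher with intervals apart for 1 of 71 names of any family with at least 1000 reads in both libraries (1.41%) and lower for 5 (7.04%). Of the 67 names of named families, the 1 that was higher was miR-140 star, with 14.7% in the overfed library and 8.37% in the control library. The 3 that were lower were miR-143, with 8.16% in the overfed library and 13.2% in the control library, miR-184-3p, with 5.60% in the overfed and 8.86% in the control library, and miR-181a, with 23 of 1274 reads in the overfed and 46 of 1158 in the control library. The names miR-143 and miR-181a were chosen after their values were seen. Such shares depend on how names split the reads of 1 miRNA. The name miR-143-3p was not called and went the other way, with 3.19% in the overfed and 2.88% in the control library. Nor was a call made for miR-140, with 1.86% in the overfed and 2.26% in the control library. The same held for miR-140-3p, with 1.33% in the overfed and 1.12% in the control library. The other 2 names called lower, miR-2487 and miR-4508, were of undefined family. Since 67 of the 71 names belong to named families, the comparison cannot set those families apart.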

How the data were processed

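Small RNA of 20 to 30 nt was isolated on a gel from 10 μg of total liver RNA and made into 1 Illumina library per group, per the labels' protocols. The authors deposited 1 list per library, with raw counts of reads per distinct tag and, for each tag, its reference miRNA, family and numbers of matches, mismatches and gaps. The deposited alignment score was 2 per match, less 1 per mismatch and 3 per gap. Aligner and miRNA database: not given in the sources used here. Only tags with a miRNA match are listed, so totals fall short of the depth of the whole libraries.

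Each tag was aligned again to its own reference. An alignment without an internal gap was taken where it had the deposited counts of matches, mismatches and gaps. Otherwise the best alignment with gaps under that score was taken. Differences were placed at the 3′ end, near it (last 3 bases), at the 5′ end or inside, and tags with an internal gap were kept apart. A site is a name without species prefix, a position on its most read reference and a base change, and its depth is all reads of the name over that position. Reads aligned through an internal gap count in this depth but never as carriers of a change. Shares and rates taken over the depth can therefore be too low. Shares have exact Clopper-Pearson 95% intervals and ratios, overfed over control, exact conditional binomial intervals. Without molecular identifiers, amplified copies count as reads, and the intervals hold counting error alone. No p-value was computed, since each group has 1 library. A difference was called at a ratio of at least 1.5 with intervals that did not overlap. On simulated tags the procedure was tested and returned the sites that had been put in. Those tags were of full length, had no gaps and used 1 reference per name. Gapped or trimmed tags and split names were thus not tested.

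The text names the 10 names with the most mismatched reads, the near-fixed sites, up to 10 intermediate A-to-G and 10 other intermediate sites, the 10 names with the most single 3′ end bases, and up to 8 sites higher and 8 lower in the overfed library; exceptions are stated. Members, names and lists were chosen with earlier results of these data known. Counts over reads of any name were added after the data had been seen, because names split the reads of 1 miRNA. Those by the 10 bases before a site took reads of any start that go on past these bases. Those after a fixed stretch took reads that begin with it and include reads that stop there, so the 2 shares can differ. Alternatives were other windows, weights, depths and thresholds, tags of at least 21 bases, and leaving out miR-122 or let-7. Genome positions are not given. Python 3.11.15 with numpy 2.4.6, pandas 2.3.3 and scipy 1.17.1 was used.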

Additional observations from a re-analysis of the deposited data

Results flagged for a closer look

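One signal lay outside the tags chosen by their listed mismatches. Tags of named families that were aligned through an internal gap and listed with 0 mismatches held 1.73% of the reads of named families in the overfed library and 1.97% in the control library, where a count of 0 would allow up to 3.1e-05% in the overfed library and 3.3e-05% in the control library. The most read of them, under miR-122, was tggagtgtgacaatggtgtttt, with 71804 reads in the overfed library and 81460 in the control library; it was aligned to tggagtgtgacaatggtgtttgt with a gap. The mismatch column therefore counts fewer differing reads than the alignments hold.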

How the results depend on the processing

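No paired analysis was possible because there is a single library per diet and no number that pairs them. In the overfed library the mismatched share was 4.39% with tags of at least 21 bases, 4.42% with undefined families, 5.99% with gapped tags counted, 65.5% with each distinct tag counted once and 4.55% without miR-122. In the control library these shares were 5.37%, 5.35%, 7.20%, 65.7% and 4.09%, so that the order turned round without miR-122. The 3′ end share was 41.6% in the overfed and 43.0% in the control library without miR-122, and by distinct tags 11.9% in the overfed and 11.6% in the control library. The internal share in the overfed library was 27.7% with a near-end window of 1 base, 16.0% with 5 bases, 48.2% by distinct tags and 22.9% without miR-122; in the control library it was 22.5%, 13.2%, 47.8% and 25.0%, and the order turned round without miR-122. A as the single end base in the overfed library was 30.4% without miR-122, 46.5% by distinct tags and 88.5% with tags of at least 10 reads. In the control library it was 40.6%, 45.6% and 92.7%, and the order turned round by distinct tags. A-to-G among internal changes was 11.8% in the overfed and 12.4% in the control library with near-fixed sites kept, and 15.5% in the overfed and 19.0% in the control library without miR-122 and let-7. The 11 near-fixed sites became 4 at a depth of 1000 reads. By flanking bases they became 4, because only those 4 sites have 5 bases on each side, and all 4 passed. The 2 A-to-G sites became 8 at a depth of 100, 1 at 5000 and 0 at a share of 5%; the flanking bases could not be counted for either, since base 3 has too few bases before it. The 4 sites higher in the overfed library became 2 at a ratio of 2. The 5 lower became 1 at a ratio of 2 and 2 at a depth of 5000. Apart from the sites without enough flanking bases, the cause was not tested. Few reads limit the shallow sites, and 1 library per diet limits every comparison.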

Other observations

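Mismatched reads of names with an undefined family, which are not part of the tags above, made up 46.3% of the 36895 reads of those names in the overfed library and 52.6% of 24782 in the control library. This is far above the share in named families. They came from 1661 tags in the overfed library and 1287 in the control library, but 2 names held most of them. These were miR-2779, with 7543 mismatched reads in the overfed and 5966 in the control library, and miR-4206-3p, with 3759 and 2945. The other 2 deep names of undefined family were low. miR-2487 stood at 2.74% in the overfed and 4.28% in the control library, and miR-4508 at 1.51% and 2.64%.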
